A study of Mus musculus with 6 samples.

Results

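The genes described here mark the GABAergic interneuron lineage of the ventral telencephalon. They comprise 9 genes: the homeobox factors Dlx1, Dlx2, Dlx5 and Lhx6, the GABA-synthesising enzymes Gad1 and Gad2, the vesicular GABA transporter Slc32a1, and the neuropeptides Sst and Npy. They were chosen by name, and their probes were found by matching the accession on the array, without its version, to RefSeq. The match gave 12 probes for 9 genes, out of 55681 probes and 19988 named genes on the array. Dlx1, Dlx2, Dlx5, Gad1, Gad2, Sst and Npy had 1 probe each, Slc32a1 had 2 and Lhx6 had 3.

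GFP from the Tis21 locus labels cortical progenitors that are about to generate neurons. S-phase cells were sorted from the dorsal telencephalon of embryonic day 14.5 mice, on a C57BL/6 background, that were heterozygous for a Tis21-GFP knock-in. The 2 groups were Tis21-GFP positive and Tis21-GFP negative S-phase cells, with 3 arrays each. All 6 samples carried the same knock-in allele, so the groups differed by GFP signal and not by genotype. Each replicate pooled 30 hemispheres of 15 embryos, and the authors analysed the best 3 of the experiments they had run, by a standard the labels do not give. S phase was gated by DNA content with a vital dye. Btg2, the gene symbol of Tis21, had a scaled log2 signal of 1.32, 1.84 and 1.67 in positive cells, against 0.67, 0.91 and 0.94 in negative cells. The Btg2 difference of 0.77 ± 0.17 (limma adjusted p = 0.0139) was lost without negative replicate 1 (0.68, adjusted p = 0.0622).

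Interneurons of the cortex arise in the ventral telencephalon, in the ganglionic eminences, and reach the cortex by tangential migration. Dlx factors act there in progenitors and young neurons, and Lhx6 acts downstream of Nkx2-1 in cells of the medial ganglionic eminence. Cortical progenitors themselves mainly produce glutamatergic neurons, through Neurog2 and Eomes. GABA is made from glutamate by the enzymes that Gad1 and Gad2 encode and is loaded into vesicles by the transporter that Slc32a1 encodes. Somatostatin and neuropeptide Y are peptides of interneuron subclasses.

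Promoter sequence is shown for the members whose signal fell in positive cells, so that what lies before their starts can be seen. The 4 sequences are the 250 bases before the annotated start, read 5′ to 3′ on the strand of the gene, from RefSeq on GRCm38.p6. Capitals mark matches, on either strand, to the cAMP response element TGACGTCA, the homeodomain core TAATTA or the TATA box TATAAA.
Gad1, chr2:70561879-70562128, + strand: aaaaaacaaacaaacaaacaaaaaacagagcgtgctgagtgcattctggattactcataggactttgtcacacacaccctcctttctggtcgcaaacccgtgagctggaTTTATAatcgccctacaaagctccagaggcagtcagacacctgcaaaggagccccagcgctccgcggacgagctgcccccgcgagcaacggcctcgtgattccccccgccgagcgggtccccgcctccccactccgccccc
Slc32a1, chr2:158610508-158610757, + strand: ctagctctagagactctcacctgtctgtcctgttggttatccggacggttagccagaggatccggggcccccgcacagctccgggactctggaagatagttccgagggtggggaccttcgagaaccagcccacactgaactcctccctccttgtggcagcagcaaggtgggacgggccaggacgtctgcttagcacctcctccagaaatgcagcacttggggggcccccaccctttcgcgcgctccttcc
Sst, chr16:23890845-23891094, - strand: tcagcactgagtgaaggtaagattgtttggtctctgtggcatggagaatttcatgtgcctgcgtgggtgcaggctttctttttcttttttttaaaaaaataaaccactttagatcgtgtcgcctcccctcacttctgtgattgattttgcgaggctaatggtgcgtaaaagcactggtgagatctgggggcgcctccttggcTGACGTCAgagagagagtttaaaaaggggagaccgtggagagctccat
Npy, chr6:49822460-49822709, + strand: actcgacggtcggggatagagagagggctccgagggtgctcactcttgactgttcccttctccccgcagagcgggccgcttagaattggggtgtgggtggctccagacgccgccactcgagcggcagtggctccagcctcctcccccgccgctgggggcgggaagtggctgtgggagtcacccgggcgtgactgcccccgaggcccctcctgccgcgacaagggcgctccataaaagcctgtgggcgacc

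The Sst window held the cAMP response element, beginning 48 bases before the start, and 1.55% of 32851 windows of the same length held that motif. The Gad1 window held a TATA box match on the other strand, beginning 141 bases before the start, and 12.4% of all windows held that motif. The homeodomain core was found in 4.84% of all windows and in none of the 10 windows found for 8 members (0 matches). The GC content of the 4 windows was 58% for Gad1, 62.4% for Slc32a1, 47.2% for Sst and 69.2% for Npy. These matches describe the letters of the windows and were not tied to the signal.

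Signal was measured on 1-colour arrays and is given as log2 intensity minus the 75th percentile of the same array, so that 0 is that percentile. Between 28519 and 29273 probes on positive arrays, and 29312 to 31274 on negative arrays, were well above background. After the filter on dim probes, 13136 genes were tested with limma at an adjusted p of 0.05. Of these, 1687 (12.8%) were higher and 1716 (13.1%) lower in positive cells. All positive arrays lay below all negative arrays for 18.6% of genes and above them for 28.1%. The share of calls that were higher was 49.6%. It was 65.8% with median centring, 29.1% when the percentile came from probes detected on every array, 39.6% with quantile normalization and 39.5% with the authors' deposited values. Over all tested genes the log2 difference had a median of 0.12 and lay between -0.06 and 0.30 over those scalings.

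All 9 members passed the filter, each with 1 probe, and Gad1 and Npy passed only through the negative arrays, a route that favours genes lower in positive cells. Of the 9, limma called 4 lower in positive cells (44.4%, against 13.1% of all genes) and 0 higher (0 also at an unadjusted p under 0.05). Those that fell were Slc32a1, Gad1, Sst and Npy, which encode GABA-handling proteins and peptides. The homeobox genes Dlx1, Dlx2, Dlx5 and Lhx6, and Gad2, did not pass. With negative replicate 1 left out, 2 of the 9 were called lower, Slc32a1 and Gad1. Over all genes, 1174 were called lower in that fit, against 1716 with all arrays. With only probes well above background on all 6 arrays, which leaves out Gad1 and Npy, 2 of 7 members (28.6%) and 11.2% of all genes were called lower. For the same 4 genes, all positive arrays lay below all negative arrays, as they did for 18.6% of tested genes. Since the RNA came from pools of cells, fewer cells of a type and less RNA per cell cannot be told apart in any of these differences. Replicates were independent experiments, per the series design, and p-values measure the spread between these pooled samples.

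**Figure D1:**
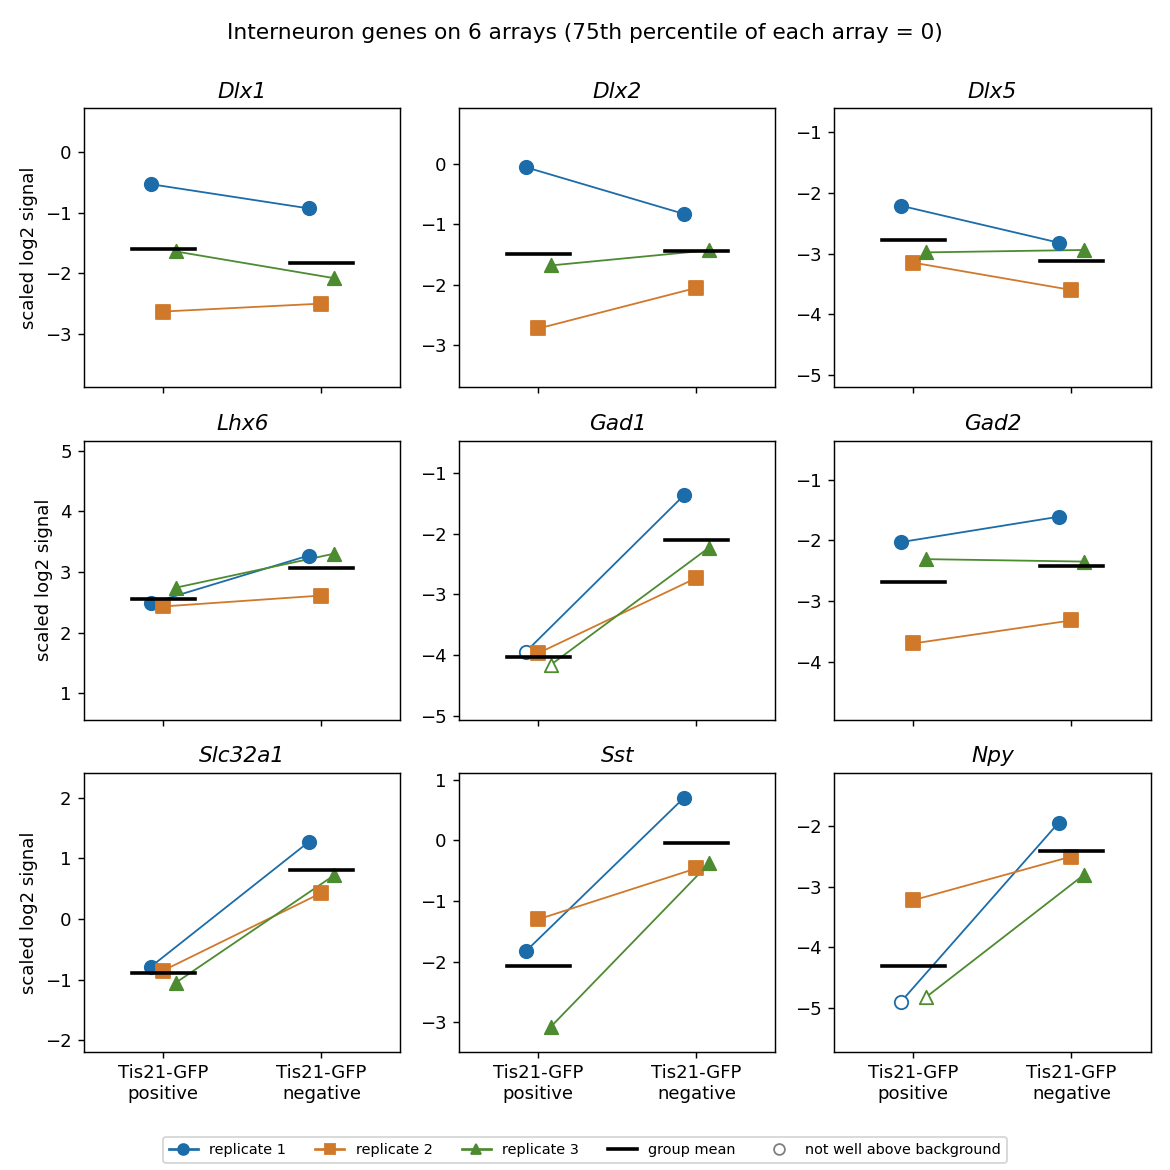
Scaled log2 signal of the tested probe of each gene on the 3 Tis21-GFP positive arrays (left) and the 3 Tis21-GFP negative arrays (right) of each panel, on axes of equal span. Lines join arrays with the same replicate number, black bars are group means and open symbols were not well above background; Gad1, Slc32a1, Sst and Npy separate the groups, and Dlx1, Dlx2 and Gad2 separate the replicate numbers.

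Slc32a1, the vesicular GABA transporter, separated the groups, with little spread among positive arrays. Its tested probe read -0.79, -0.85 and -1.05 in positive replicates 1 to 3, against 1.27, 0.43 and 0.72 in negative replicates 1 to 3. The 3 positive values spanned 0.27, and the lowest negative array stood above the highest positive one. The log2 difference was -1.70 ± 0.22 (SE, n = 3 per group, limma adjusted p = 0.00121), or 3.25-fold lower in positive cells. It was called under each of the 17 alternatives run, at -1.89 to -1.43. The second Slc32a1 probe was well above background on 2 of 3 positive and 2 of 3 negative arrays and did not pass the filter. It read -3.84, -3.91 and -4.15 in positive cells, against -3.47, -3.92 and -4.00 in negative cells, so the groups overlapped on that dim probe.

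Gad1, which encodes the larger of the glutamate decarboxylases, was near the detection limit in positive cells. Its probe read -3.95, -3.97 and -4.16 in positive replicates 1 to 3, against -1.37, -2.73 and -2.23 in negative replicates 1 to 3. It was well above background on 1 of 3 positive arrays and on all 3 negative arrays. Its -4.16 in positive replicate 3 lay below the lowest signal of probes well above background on that array (-3.81). The difference was -1.91 ± 0.31 on the log2 scale (limma adjusted p = 0.00351), or 3.77-fold lower in positive cells. Under normexp background correction, with its offset of 50, the difference was -0.51 and did not pass (adjusted p = 0.0664).

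Gad2 encodes the smaller glutamate decarboxylase, associated with synaptic terminals, and it did not pass the test. Gad2 read -2.03, -3.70 and -2.31 in positive cells, against -1.61, -3.32 and -2.35 in negative cells. The groups overlapped, and in each group replicate 1 was highest and replicate 2 lowest. The log2 difference was -0.26 ± 0.52 (limma adjusted p = 0.737). Its sign turned when positive replicate 2 was left out (0.25) and when negative replicate 1 was (0.15). A difference between the responses of Gad1 and Gad2 was not tested.

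Sst, the precursor of somatostatin, was measured by 10 spots per array, and so its error within an array is known. The spot intensity averaged 87.9 ± 10.8, 119 ± 8.15 and 25.9 ± 5.95 in positive replicates 1 to 3 (SD over 10 spots). In negative replicates 1 to 3 it averaged 535 ± 36.2, 249 ± 26.7 and 220 ± 28.5 (SD over 10, 10 and 8 spots). Every used spot on every array was well above background. The spread between positive arrays was far larger than that between spots, with positive replicate 3 lowest. On the scaled log2 scale, Sst read -1.83, -1.30 and -3.07 in positive cells, against 0.70, -0.46 and -0.38 in negative cells. The log2 difference was -2.02 ± 0.47 (limma adjusted p = 0.0172), or 4.06-fold lower in positive cells. Without Tis21-GFP negative replicate 1 the difference was -1.65 and did not pass (adjusted p = 0.0649), and with normexp background it was -1.32 and passed.

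Npy, the precursor of neuropeptide Y, read -4.90, -3.22 and -4.82 in positive cells, against -1.94, -2.50 and -2.80 in negative cells. Its probe was well above background on positive replicate 2 and on no other positive array, and on all 3 negative arrays. Npy had a log2 difference of -1.90 ± 0.44 (limma adjusted p = 0.0173), or 3.74-fold lower in positive cells. In positive replicates 1 and 3 it lay below the lowest signal of probes well above background on those arrays (-4.16 and -3.81). The size of the Npy fold is therefore uncertain. Npy did not pass when negative replicate 1 (-1.66, adjusted p = 0.0722) or negative replicate 2 (-1.95, adjusted p = 0.0551) was left out, or with normexp background (-0.44, adjusted p = 0.0595).

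All positive arrays lay below all negative arrays for Slc32a1, Gad1, Sst and Npy. Any pairing of the arrays would therefore show each gene lower in 3 of 3 pairs, and only the sizes are described here. Among same-numbered pairs, pair 2 showed the smallest difference for each gene, at -1.28 for Slc32a1, -1.24 for Gad1, -0.84 for Sst and -0.72 for Npy. Pair 1 gave -2.06 for Slc32a1, -2.58 for Gad1, -2.53 for Sst and -2.96 for Npy. Pair 3 gave -1.77, -1.93, -2.70 and -2.02 for the same genes. The replicate block moved none of the 9 members across the threshold.

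**Figure D2:**
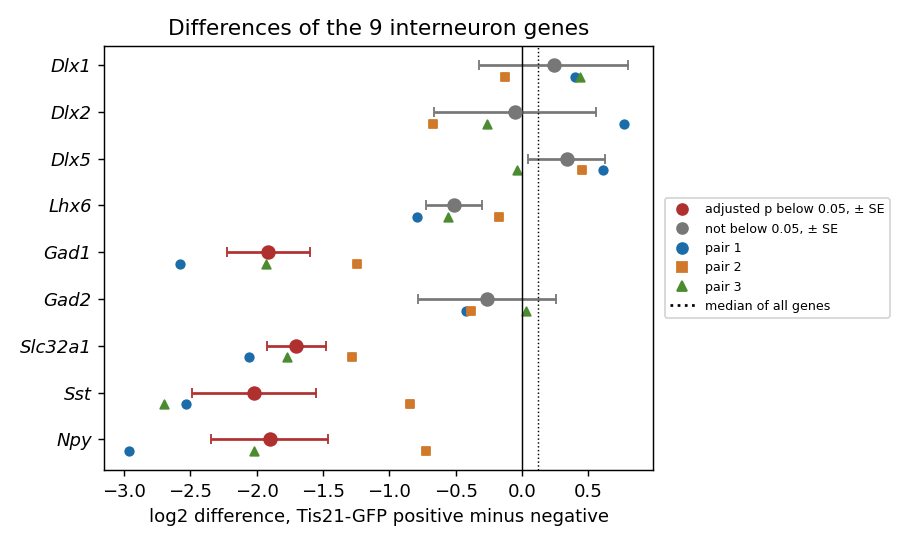
Log2 differences, Tis21-GFP positive minus negative, of the 9 genes (large points, ± SE from limma, n = 3 per group) with the difference of each same-numbered pair below. Gad1, Slc32a1, Sst and Npy lie between -2.02 and -1.70, while Dlx1, Dlx2, Dlx5 and Gad2 lie between -0.26 and 0.34; the dotted line is the median of all tested genes, 0.12.

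The Dlx genes encode the homeobox factors that specify ventral GABAergic neurons. Dlx1 read -0.53, -2.63 and -1.64 in positive replicates 1 to 3, against -0.93, -2.50 and -2.08 in negative replicates 1 to 3. Dlx2 read -0.06, -2.72 and -1.68 in positive cells, against -0.83, -2.05 and -1.43 in negative cells. Dlx5, on chromosome 6 whereas Dlx1 and Dlx2 are neighbours on chromosome 2, read -2.21, -3.15 and -2.98 in positive cells, against -2.82, -3.60 and -2.94 in negative cells. The groups overlapped for all 3 genes, and replicate 1 was highest and replicate 2 lowest in both groups. All 3 were well above background on all 6 arrays.

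The log2 difference was 0.24 ± 0.56 for Dlx1 (limma adjusted p = 0.772), -0.05 ± 0.61 for Dlx2 (adjusted p = 0.96) and 0.34 ± 0.29 for Dlx5 (adjusted p = 0.405). With the replicate block, the adjusted p-values were 0.286, 0.902 and 0.157. The sign for Dlx1 turned without Tis21-GFP positive replicate 1 (-0.30), and the sign for Dlx2 turned under 7 of 17 alternatives.

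The spread of Dlx1, Dlx2, Gad2 and Sst between arrays was large for these data in both groups. Dlx1 had an SD of 1.05 in positive and 0.81 in negative cells, against medians of 0.21 and 0.16 over all tested genes. The SD of Dlx2 was 1.34 in positive and 0.61 in negative cells, that of Gad2 was 0.90 and 0.86, and that of Sst was 0.91 and 0.64. At least 98.2% of tested genes had a smaller SD than each of these 4 genes in each group. Npy exceeded 98.6% of genes in positive and 94.6% in negative cells. Slc32a1 had an SD of 0.14 in positive and 0.43 in negative cells, above 29.2% and 94.1% of genes. The SD of Gad1 was 0.12 in positive and 0.69 in negative cells, above 22.4% and 98.9% of genes. In negative cells each of the 9 members exceeded at least 92.5% of genes, the lowest share being that of Lhx6.

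Dlx1, Dlx2, Dlx5 and Gad2 shared the order replicate 1, then 3, then 2 from high to low in both groups. Gad1, Slc32a1 and Sst showed the same order in the negative group only. That order was read from the values of these same genes. It was shown in both groups by 2.23% of all tested genes (293 genes), a share that describes the data and carries no test. Replicate 1 stood above the mean of the other replicates by 1.61 in positive and 1.36 in negative cells for Dlx1. For Dlx2 the excess was 2.14 in positive and 0.91 in negative cells, and for Gad2 it was 0.98 and 1.23. The 5th and 95th percentiles of this excess over all tested genes were -0.45 and 0.58 in positive cells and -0.43 and 0.48 in negative cells. Over the 6 arrays, after centring each gene, the Euclidean distance was 0.69 between Dlx1 and Dlx2 and 0.93 between Dlx1 and Gad2, against 3.03 between Dlx1 and Gad1. Gad1 and Slc32a1 were 0.45 apart. The centring keeps the difference between groups, so these distances reflect that difference as well as the replicate order. They describe 6 arrays and carry no test.

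**Figure D3:**
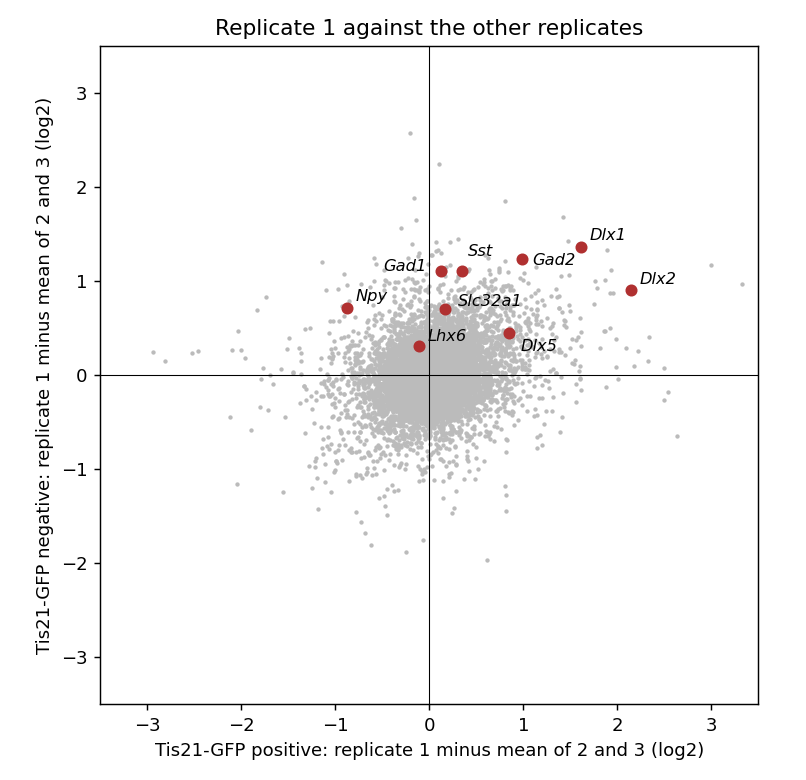
Excess of replicate 1 over the mean of replicates 2 and 3 (log2) in Tis21-GFP positive cells (x axis) and Tis21-GFP negative cells (y axis). Grey points are all tested genes, of which 4 lie outside the plotted range; Dlx1, Dlx2 and Gad2 are raised in replicate 1 of both groups, while Gad1, Sst, Slc32a1 and Npy are raised by 0.70 or more in the negative group and by 0.35 or less in the positive group.

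In the positive group the excess of replicate 1 was 0.12 for Gad1, 0.17 for Slc32a1, 0.35 for Sst and -0.88 for Npy. In the negative group it was 1.11, 0.70, 1.11 and 0.71 for the same genes, and all 4 were highest in replicate 1. Gad1 and Slc32a1 were highest in replicate 1 of the positive group too, by small margins. Sst and Npy were highest in positive replicate 2, where Dlx1 and Dlx2 were lowest. Whether tissue, sorting or amplification differed between the replicates was not tested.

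Lhx6, a LIM-homeobox factor of medial ganglionic eminence interneurons, was read by 3 probes that disagreed. The tested probe read 2.48, 2.43 and 2.74 in positive cells, against 3.27, 2.61 and 3.30 in negative cells, with overlapping groups. Its log2 difference was -0.51 ± 0.21 (limma adjusted p = 0.111), and it passed with normexp background (-0.60) and without Tis21-GFP negative replicate 2 (-0.73). A second probe to the same accession read -5.11, -4.37 and -5.64 in positive cells, against -2.95, -3.82 and -4.33 in negative cells. It was well above background on 0 of 3 positive and 2 of 3 negative arrays and was not tested. The third probe was not well above background on any array. Since these probes disagreed on whether Lhx6 was detected, its value is uncertain.

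The rule for likeness named the closest profiles of the called members seen on all 6 arrays. Over the 6 arrays, those nearest to Slc32a1 were Gucy1a1, Ldb2 and Slc35f2, at distances of 0.26, 0.28 and 0.31. Nearest to Sst were Mef2c, Islr2 and Vgll2, at 0.52, 0.55 and 0.56.

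Factors of ventral progenitors were mostly too dim to be tested. Of 10 listed genes, 3 were tested, and Gsx1, Nkx2-1, Nkx6-2 and Helt were well above background on no array. Among the 3 tested genes, limma called 1 higher and 0 lower in positive cells (2 and 0 at an unadjusted p under 0.05). Of 14 tested genes of the dorsal glutamatergic lineage, 10 rose and 0 fell by limma (11 and 0 at an unadjusted p under 0.05), with a median of 1.09. Their summed linear signal was 262 to 290 in positive and 132 to 151 in negative cells, in units of the 75th percentile, and all 14 listed passed the filter in these cells labelled as dorsal. Among them, Neurog2 rose by 2.48 ± 0.16 and the vesicular glutamate transporter Slc17a6 by 3.19 ± 0.21, both with an adjusted p of 0.000158.

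Further transcription factors of ventral and interneuron fate went both ways. Of 20 listed, 13 were tested, 4 rose and 2 fell, with a median log2 difference of 0.02. Dlx6, Lhx8, Sp9, Isl1 and Gbx1 were well above background on no array. Pbx3, a TALE homeobox factor, rose by 1.61 ± 0.14 (limma adjusted p = 0.000307), Prox1 by 0.98 ± 0.17 and Satb1 by 0.72 ± 0.17. The Satb1 call was lost under 6 of 17 alternatives. Prox1, well above background on 2 of 3 negative arrays, did not pass with normexp background (0.39, adjusted p = 0.0734). Maf, used by medial eminence interneurons and also by macrophages, fell by 1.25 ± 0.17 (adjusted p = 0.00136), and Zfhx3 fell by 1.06 ± 0.22. With normexp background these 2 stood at -0.62 and -0.50.

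Among genes that take up and break down GABA, none of those tested was called lower. Of 6 listed, 3 were tested, 1 rose and 0 fell by limma (2 and 0 at an unadjusted p under 0.05). Abat, the GABA transaminase, rose by 0.73 ± 0.15 (adjusted p = 0.01). Receptor subunits for GABA fell in 4 of 9 tested genes of 14 listed, and 0 rose (0 also at an unadjusted p under 0.05), with a median of -0.49. Gabrb1 fell by 1.55 ± 0.25 (limma adjusted p = 0.00322), Gabrb2 by 0.83 ± 0.19 and Gabra3 by 0.49 ± 0.14. The calls were lost under 13 of 17 alternatives for Gabra3 and 5 for Gabrb2, and under none of 16 for Gabrb1, which stood at -0.49 with normexp background.

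Receptor genes for the peptides were called in the opposite direction to Sst and Npy where they were called. Of 10 receptor genes for somatostatin and neuropeptide Y, 5 were tested, all for somatostatin, and 2 rose and 0 fell by limma (3 and 0 at an unadjusted p under 0.05). Sstr2 rose by 3.11 ± 0.23 (adjusted p = 0.000186) and Sstr3 by 1.18 ± 0.15 (adjusted p = 0.00116). None of the receptors for neuropeptide Y passed the filter, and Npy2r, Npy5r and Npy6r were well above background on no array. Sst itself was 4.06-fold lower in the same positive cells.

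Of 16 other subtype and peptide genes listed, 9 were tested, 2 rose and 2 fell, with a median of 0.07. Vip, Calb1, Calb2, Thbd and Lamp5 were well above background on no array. In positive cells Crh, a neuropeptide gene, was not detected above background on any array. Crh passed the filter only through the negative arrays and was called lower in positive cells (limma adjusted p = 0.000247). Its measured means were -4.90 in positive and -2.57 in negative cells. Set against the lowest signal of probes well above background on each positive array, the mean of negative arrays was 2.85-fold higher. With normexp background the log2 difference was -0.64 and passed (adjusted p = 0.0088), so the size of the fold is uncertain. Cck, the precursor of cholecystokinin, fell by 1.89 ± 0.42 (adjusted p = 0.0141), a call lost when negative replicate 1 (-1.59) or negative replicate 2 (-1.86) was left out. Penk, the precursor of the enkephalins, rose by 1.94 ± 0.16 (adjusted p = 0.000254), or 1.19 with normexp background. Chodl was called higher, but its probe was well above background on 1 of 3 negative arrays, and its difference of 1.53 ± 0.23 was 0.62 with normexp background.

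Genes of migrating neurons, several of which dorsal neurons share, rose in 3 of 7 tested genes and fell in 1, with a median of 0.79. The semaphorin receptor genes Nrp2 and Plxna4 rose by 1.38 ± 0.16 and 1.32 ± 0.18, the microtubule gene Dcx, also among the postmitotic neuron genes, by 1.02 ± 0.19, and the Slit receptor gene Robo1 fell by 0.94 ± 0.23 (adjusted p = 0.0218). The Robo1 call was lost under 4 of 17 alternatives, among them median centring (-0.75, adjusted p = 0.0595) and leaving out negative replicate 1 (-0.70, adjusted p = 0.0633). Erbb4, a neuregulin receptor of migrating interneurons, was well above background on no array.

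**Figure D4:**
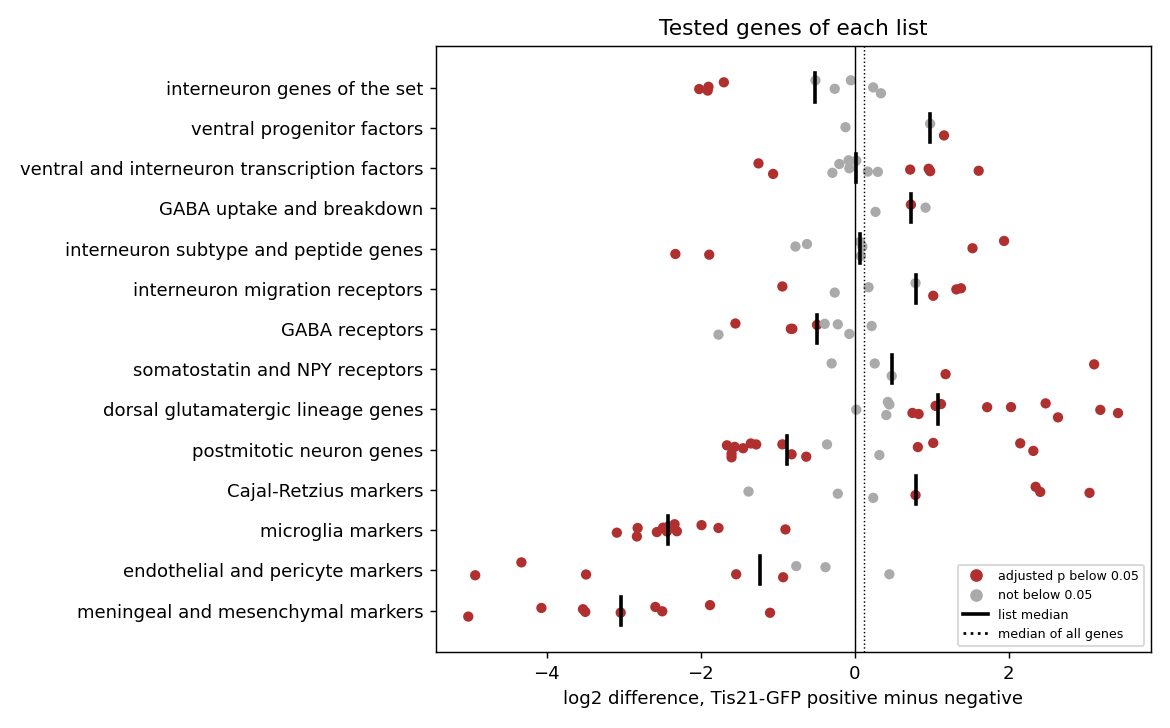
Log2 differences, Tis21-GFP positive minus negative, of the tested genes of each list (red, limma adjusted p below 0.05; grey, not below). Black bars are list medians, at -0.51 for the 9 interneuron genes, -0.88 for postmitotic neuron genes and 1.09 for the dorsal glutamatergic lineage, and the dotted line is the median of all tested genes, 0.12.

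Most markers of microglia, meninges and several neuronal genes also fell in positive cells, as Gad1, Slc32a1, Sst and Npy did. Of 16 tested genes of postmitotic neurons, 10 fell and 4 rose, with a median of -0.88. Their summed linear signal, in units of the 75th percentile, was 174 to 197 in positive cells and 155 to 194 in negative cells. Mapt fell by 1.60 ± 0.22 and Stmn4 by 1.45 ± 0.17, whereas Rbfox3 rose by 2.15 ± 0.16 and Elavl4 by 2.32 ± 0.17. All 12 microglia markers fell, with a summed signal of 4.54 to 8.51 in positive and 16.3 to 22.7 in negative cells, and 2 of them were well above background on no positive array. All 9 tested meningeal and mesenchymal markers of 12 fell, with a summed signal of 12.3 to 19.6 in positive and 37.5 to 41.8 in negative cells, and 3 of the 9 were well above background on no positive array. Fn1 made up most of that sum, and the other 8 summed to 0.639 to 0.931 in positive and 4.62 to 9.24 in negative cells. Of 8 tested endothelial and pericyte markers of 12, 5 fell, at a summed signal of 9.55 to 10.6 in positive and 8.26 to 9.45 in negative cells, of which Kdr alone made up 71.9% to 96%. The other 7 all had differences below 0, and they summed to 0.382 to 0.631 in positive and 1.53 to 2.32 in negative cells. Of the 8, 3 were well above background on no positive array, Pdgfrb and Rgs5 among them. Of 7 tested Cajal-Retzius markers of 10, 4 rose and 0 fell by limma (4 and 1 at an unadjusted p under 0.05), with a summed signal of 4.50 to 6.56 in positive and 1.79 to 2.18 in negative cells. The 9 interneuron genes summed to 7.03 to 8.65 in positive and 9.09 to 15.9 in negative cells, but the uncertain Lhx6 probe made up 60.7% to 80.1% of that sum. Without Lhx6 the other 8 summed to 1.63 to 3.07 in positive and 3.00 to 6.24 in negative cells, and the groups overlapped. The part of these other cells in the differences of the interneuron genes was not tested.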

How the data were processed

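RNA of sorted S-phase cells was amplified from 50 ng, labelled with Cy3 and hybridised to 1-colour Agilent arrays, per the labels' protocols, giving 6 arrays. Intensity values come from Agilent Feature Extraction, version 10.7.1.1 in the submitters' processing notes. The deposited intensities are that software's processed signal, per the file headers, which record mm9 as the build of the design and no setting of the background step. All 6 arrays lay on 1 slide. The deposited value table of the authors holds log2 values with a column median of 4.661 in every column, and the sources used here do not say how it was made. Its columns correlated at 0.99948 or more with the log2 scanner intensities, so log2 scale and no centring per gene were read from the values. All its columns share their quantiles, and the step that made them so is not named. It was used only as an alternative.

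Control spots and outlier spots were left out, log2 values of the other spots were averaged per probe, and a probe counted as well above background when over 0.5 of its spots were. No spot was saturated (0 spots). The filter kept probes that were well above background on every array of 1 group or of both. RefSeq accessions of GRCm38.p6 named 26370 probes, and 29311 stayed unnamed here. A gene was taken by its brightest tested probe. The comparison used limma (3.58.1, R 4.3.3) with no covariate, and p-values were Benjamini-Hochberg adjusted over 13136 genes. Tested on simulated data for this comparison with 13136 genes, the fit recovered 60% of log2 changes of 1 and 91% of changes of 2. At each size 100 genes were changed, and 12 unchanged genes were called as well. The simulation took every probe as well above background, so these rates do not describe the filter on dim probes. The number of arrays limits the precision.

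The members and gene lists were chosen with earlier results of these data known. Named genes were the members, Btg2, and up to 4 called genes per list and direction with the smallest adjusted p, at most 2 of them for lists of other cell types and lineages. Some genes that this rule names are not reported here. Genes named in the closing section outside the rule were chosen after their values were seen. For likeness, the 3 nearest genes were taken. Background correction on the mean signal was replaced by the median spot signal, which the files hold.

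The labels number replicates 1 to 3 in both groups. Deviations from group means correlated at 0.23, 0.13 and 0.37 between same-numbered arrays, each over 0.1, and the highest value between other numbers was 0.06, so the numbers were taken as pairs. The fits took no block, and the replicate block was an alternative. In all, 16 alternatives were planned and 1 was added after seeing the data, the fit without replicate 1 of both groups.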

Additional observations from a re-analysis of the deposited data

How the results depend on the processing

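Of 773 differences of the 46 named genes under the alternatives, 706 kept their direction and their side of the threshold, 54 lost a call, 2 gained one and 11 turned sign. Those that turned were of genes never called. With 1 array left out, Dlx1 ranged over -0.30 to 0.75, below 0 when the array was positive replicate 1 (-0.30) or negative replicate 2 (-0.10). Dlx2 stood at 0.06 with normexp background, 0.05 with quantile normalization, 0.13 with median centring, and 0.05 with the authors' processed values. With 1 array left out it ranged over -0.76 to 0.57, above 0 for positive replicates 2 (0.57) and 3 (0.05) and negative replicate 1 (0.25). Gad2 then ranged over -0.70 to 0.25, above 0 for positive replicate 2 (0.25) and negative replicate 1 (0.15). The cause was not tested. Slc32a1 kept its call under all 17 alternatives, Gad1 lost it under 1 of 16, Sst under 2 of 17 and Npy under 4 of 16. Under the replicate block, 4 of the 9 interneuron genes were lower, beside 1966 genes in all, against 1716 without the block. The median of the 9 was -0.51, and the block changed no call of theirs.

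The number of interneuron genes called lower was 2 of 7 tested when probes had to be well above background on all 6 arrays, which removed Gad1 and Npy, beside 1378 of 12249 genes (11.2%). It was 3 with normexp background, which lost Gad1 and Npy and gained Lhx6, beside 1373 of 13136 genes. It was 2 to 4 when 1 array was left out, the lowest without Tis21-GFP negative replicate 1, where 1174 genes were lower. Without replicate 1 of both groups, chosen after seeing the data, it was 2, with Sst at -1.77 (adjusted p = 0.0885) and Npy at -1.37 (adjusted p = 0.142). The median of the interneuron genes was -0.51 and moved to -0.71 with the authors' processed values, -0.68 when the percentile came from probes detected on every array, -0.70 with quantile normalization, -0.33 with median centring and -0.26 with probes well above background on all 6 arrays. Leaving out 1 array gave -0.76 to -0.38. Genes higher in positive cells numbered 1687, against 933 when the percentile came from probes detected on every array, 1120 with the authors' processed values, 1127 after quantile normalization, 896 with no filter on dim probes and 761 to 1735 when 1 array was left out. The lowest were 761 with negative replicate 1 left out, 779 with negative replicate 3 and 1056 with positive replicate 1. Without replicate 1 of both groups, 458 were higher and 1041 lower, against 1716 lower with all arrays. Fewer arrays enter these fits. Probes near background, such as those of Gad1 and Npy in positive cells, limit how well a fold is known, and 3 arrays per group limit the rest.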

Other observations

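Dlx1, Dlx2 and Gad2 were among 21 of 13136 tested genes (0.16%) whose replicate 1 stood at least 0.9 above the mean of the other replicates in both groups, a threshold chosen after the values were seen. The same set held Dlx6os1, a noncoding RNA gene of the Dlx5 and Dlx6 locus. Dlx6os1 read -1.14, -5.04 and -3.23 in Tis21-GFP positive cells, against -1.80, -3.19 and -2.75 in Tis21-GFP negative cells. Its probe was well above background on 2 of 3 positive arrays. The -5.04 of positive replicate 2 lay below the lowest signal of probes well above background on that array (-4.29). The replicate order of Dlx6os1, which rests in part on that dim value, was the one shown by Dlx1, Dlx2, Dlx5 and Gad2. Its log2 difference between groups was -0.56 ± 0.86 (limma adjusted p = 0.65). Genes outside the ventral lineage were also in the set, among them the microglial genes Cx3cr1 and P2ry12. Cx3cr1 had an excess in replicate 1 of 1.78 in positive and 0.93 in negative cells. Islr2, a gene near Sst in profile over the 6 arrays, was in the set as well, at 0.96 in positive and 1.03 in negative cells.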
